A study of Homo sapiens with 8 samples.

Results

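The proteasome is the protease that breaks down most short-lived, misfolded and oxidised proteins of a cell after they have been tagged with ubiquitin. The genes described here are those whose symbol begins with PSM, followed by a letter from A to G and a number, together with POMP. Of the 60623 genes in the table, 49 met that rule. They comprise 8 genes of the 20S alpha ring, 7 of the 20S beta ring, 4 immune or thymus beta subunits, 6 ATPases and 11 other subunits of the 19S cap, 3 chaperones of 19S assembly, 4 activators, 1 inhibitor and 5 chaperones of 20S assembly.

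Messenger RNA was sequenced from ARPE-19, a spontaneously immortalised human line from the retinal pigment epithelium, which was treated at about 80% confluence and collected after 24 h. The 4 groups were a PBS control, fucoidan from the brown alga Fucus vesiculosus at 400 µg/mL, the diesel particulate standard SRM 1650b at 200 µg/mL, and a combination in which cells received both at those concentrations from the same moment. Every group consisted of 2 libraries that the submitters describe as separate biological replicates. The particulate was first suspended in DMSO, whereas the control is labelled as PBS alone, so an effect of the particles cannot be told apart from one of the solvent. The whole study used 1 cell line and 1 time point.

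The 20S core is a barrel of stacked rings. Its alpha subunits form the gated entrance, and PSMB5, PSMB6 and PSMB7 carry the proteolytic sites. The 19S cap recognises ubiquitin chains, removes them and threads the substrate into the barrel with a ring of ATPases. In the pigment epithelium, which takes up and digests photoreceptor outer segments every day, the proteasome is known for its part in handling oxidised protein, and interferon can exchange the catalytic subunits for the immune forms PSMB8, PSMB9 and PSMB10. When proteasome activity drops, the transcription factor NFE2L1 is known to raise the genes of most subunits together.

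Total counts ran from 12993565 to 17019284 reads a library. Levels within a gene are given below as TMM-normalised counts scaled to 1e+06 reads (CPM) and levels between genes as the deposited TPM, which corrects for gene length. Fold changes are log2 values ± standard error (SE) from edgeR's quasi-likelihood fit over all 8 libraries (n = 2 a group). A gene passed where its Benjamini-Hochberg adjusted p over the 15010 tested genes was under 0.05. The combination replicates differed from each other more than those of any other group. Between them 11.3% of tested genes differed more than 2-fold, against 1.55% to 3.55% in the other groups. With 2 libraries it cannot be told which of them is the unusual one. Of the pigment epithelium markers, RPE65 had 2 reads over all libraries and TYR 24. The 8 markers together had 172.7 to 180.8 CPM in control, 193.4 to 202.7 with fucoidan, 71.8 to 75.3 with particulate and 72.3 to 87.0 in the combination, and of the 6 tested, 5 fell and 1 rose with particulate. The 10 markers of other cell types (photoreceptors, glia, endothelium, blood and pericytes) together had 467 to 513 CPM in control, 513.5 to 547 with fucoidan, 158 to 167 with particulate and 205 to 220.4 in the combination. Nearly all of that came from GLUL, which fell by 0.88 with particulate, and PDGFRB, which fell by 3.29, on the log2 scale, so 2 of the 4 tested fell and 0 rose. The other tested markers, NRL and RGS5, did not pass. CRX, GFAP, PECAM1, VWF, PTPRC and CD68, the markers not kept for testing, together had 0.223 to 0.624 CPM, and CRX had no read. Of the line's own features, the keratins KRT8 (-0.83) and KRT18 (-0.76) fell and the mesenchymal filament VIM did not pass (-0.20). Whether these marker changes have a part in the results on the proteasome was not tested. In bulk RNA, fewer cells of a type and less RNA per cell cannot be told apart.

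Proteasome mRNA was abundant in untreated cells. The 49 genes together had 6336 and 6462 TPM in the control libraries. PSMD2, the scaffold subunit on which ubiquitin shuttles dock, was the most abundant, with 957 and 966 TPM, and it alone held 20.95% to 27.55% of the members' CPM in the 8 libraries. Next in TPM came PSMB4, a structural beta subunit, with 539.8 and 536, the ATPase PSMC3 with 466 and 464, and the catalytic subunits PSMB6 with 456 and 442 and PSMB5 with 425 and 412. PSMB7, the third catalytic subunit, had 186 and 183 TPM. The median over the class was 246.8 TPM in the beta ring and 32.7 TPM in the alpha ring with PSMA8 included, although the assembled rings hold equal numbers of each. In the control libraries the genes summed to 369 and 392 TPM in the alpha ring and 2133 and 2100 TPM in the beta ring. Without length correction they summed to 313 and 359 CPM and to 1055 and 1092 CPM, so the size of the gap depends on gene length. PSMA8 and PSMB11, the subunits of the testis and thymus proteasome, had no read in any library, so 47 members were tested.

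Several low levels carry a limit of the counting. PSMA2 with 4.21 and 3.12 TPM and PSMA6 with 4.80 and 3.62 TPM lay far under the other alpha subunits with reads. Each shares exon bases with another gene on its own strand in GENCODE 29, 14.6% of them in PSMA2 and 14.1% in PSMA6. The processed pseudogene PSMA6P1 had 864 reads over the 8 libraries beside 981 for PSMA6. PSMB10 shares 34.8% of its exon bases with a gene on the same strand and PSMA1 24.7%, while PSMC1 shares 75.8% and PSMC5 19.5% with a gene on the opposite strand. In all, 12 of the 49 members share at least 10% of their exon bases with another gene on either strand, among them also PSMB8, PSMD1, PSMD7, PSMD9, PSMG2 and PSMG4. The values of these 12 genes are uncertain, since no source used here states how strand and shared bases were treated in counting.

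Particulate raised a set of proteasome genes drawn from the alpha ring, the beta ring, the 19S cap and the assembly chaperones, and lowered none. Of the 47 members tested, 11 rose (23.4%) and 0 fell, where 9.11% of all tested genes rose and 11.5% fell. The median log2 fold change was 0.31 over the members and 0.01 over all tested genes, and 42 of the 47 members lay above zero. In 29 members (61.7%) both particulate libraries exceeded both control libraries, and in 1, PSMB10, both lay below, against 32.7% and 32.3% of all tested genes. At an unadjusted p under 0.05 there were 21 members (44.7%), all higher, against 34.2% of all tested genes, and DESeq2 and limma also called 0 lower. The members' share of all counts was 0.532% and 0.568% in control and 0.781% and 0.708% with particulate, 0.477% and 0.528% with fucoidan, and 0.548% and 0.635% in the combination. The increases were modest, between 1.41-fold and 1.87-fold for the 11 that passed.

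**Figure D1:**
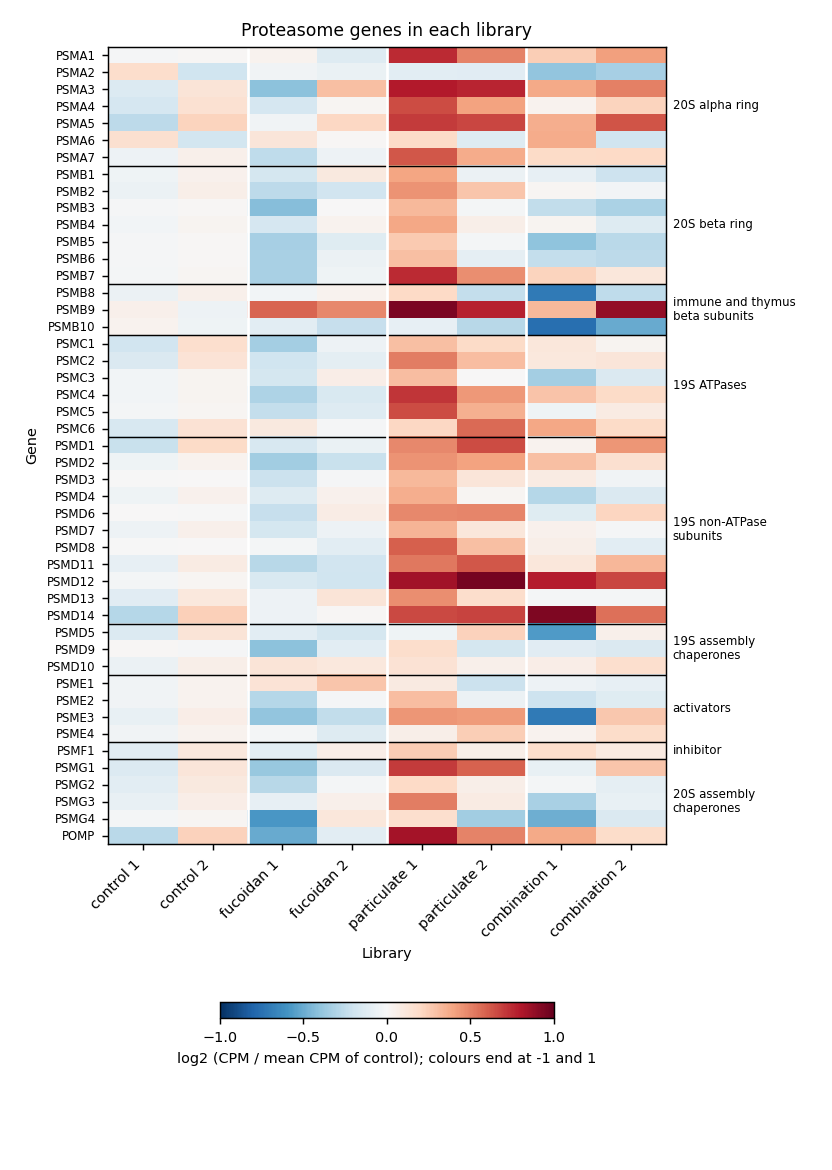
Level of the 47 tested proteasome genes (rows, by class) in each of the 8 libraries (columns), as log2 of CPM over the mean CPM of the 2 control libraries, where red is higher and blue lower. The particulate columns are red for most genes, and 34 of the 47 genes have their highest level in particulate replicate 1. That count was not made over all tested genes. PSMD12, PSMD14, PSMB9, PSMA3 and PSMA5 are among the genes that stay red in both combination columns. PSME3, PSMB8 and PSMB10 are darkest blue in combination replicate 1.

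In the alpha ring 4 of 7 tested subunits rose. PSMA1 had 45.6 and 46.1 CPM in the control libraries, 47.0 and 41.9 with fucoidan, 76.9 and 64.5 with particulate and 54.4 and 60.9 in the combination. Both particulate libraries exceeded the other 6, and the change from control was 0.62 ± 0.16 (adjusted p = 0.0216). PSMA3 had 29.7 and 35.7, 24.6 and 40.2, 56.7 and 55.4 and 42.4 and 46.4 CPM in the same order. Its particulate libraries lay close together and above the rest, at 0.78 ± 0.22 over control (adjusted p = 0.0358), the largest change in the ring. PSMA5 moved from 36.2 and 50.5 to 70.3 and 69.0 CPM (0.68 ± 0.19, adjusted p = 0.0338) and PSMA7 from 95.003 and 102 to 151 and 127 CPM (0.50 ± 0.15, adjusted p = 0.0447). PSMA4 had a change of 0.53 ± 0.17 and did not pass (adjusted p = 0.0544). PSMA2 had the smallest value in the ring, -0.11 ± 0.23 (adjusted p = 0.777), and PSMA6 had 0.04 ± 0.25 (adjusted p = 0.924). These are the genes with the uncertain low counts.

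In the beta ring 1 of 7 rose, PSMB7, which carries the trypsin-like site. It had 89.5 and 92.3 CPM in control, 72.7 and 88.3 with fucoidan, 153 and 126 with particulate and 106 and 98.4 in the combination. The particulate libraries were the highest of the 8, and the change from control was 0.61 ± 0.16 (adjusted p = 0.026). PSMB5, the chymotrypsin-like subunit, had 178 and 179.8 CPM in control, 142 and 164 with fucoidan, 214 and 177 with particulate and 135 and 148 in the combination. Particulate replicate 1 was above the controls and replicate 2 just below them, and the change was 0.13 ± 0.15 (adjusted p = 0.6). PSMB6, the caspase-like subunit, had 178 and 181, 143 and 172, 221 and 169 and 152 and 149 CPM in that order, the smallest change in the ring (0.12 ± 0.17, adjusted p = 0.658). Whether PSMB7 differed in response from PSMB5 and PSMB6 was not tested. The TPM ratio of PSMB7 to PSMB5 was 0.436 and 0.445 in control, 0.443 and 0.465 with fucoidan, 0.619 and 0.616 with particulate and 0.679 and 0.575 in the combination, and that of PSMB6 to PSMB5 stayed between 1.0216 and 1.1995 in all 8 libraries.

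None of the immune subunits passed. PSMB8, the immune form of PSMB5, had 46.3 and 49.97 CPM in control, 47.3 and 49.2 with fucoidan, 55.3 and 40.8 with particulate and 29.5 and 40.3 in the combination. The particulate libraries lay on either side of the controls, at -0.002 ± 0.20 (adjusted p = 0.995), and the combination libraries were the lowest. PSMB9, the immune form of PSMB6, was scarce, with 2.27 and 2.11 CPM in control, 3.28 and 3.05 with fucoidan, 4.21 and 3.73 with particulate and 2.73 and 4.01 in the combination. Every treated library exceeded both controls, and the change with particulate was 0.86 ± 0.28 (adjusted p = 0.0569). PSMB10, the immune form of PSMB7, had 7.15 and 6.77, 6.47 and 5.93, 6.57 and 5.74 and 4.13 and 4.90 CPM (-0.18 ± 0.21 with particulate, adjusted p = 0.6). In control PSMB8 had a mean of 48.1 CPM beside 179 CPM in PSMB5, with 2997 and 1765 exon bases in GENCODE 29. The TPM ratios that follow also depend on gene lengths, whose source is not stated in the sources used here. By TPM the immune forms were a small fraction of their counterparts. PSMB8 was 0.0968 to 0.148 of PSMB5 and PSMB9 0.00506 to 0.0117 of PSMB6. PSMB10 was 0.0879 and 0.0807 of PSMB7 in control, 0.0979 and 0.0738 with fucoidan, 0.0473 and 0.0503 with particulate and 0.0428 and 0.0548 in the combination. In this ratio PSMB7 rose and PSMB10 did not pass, and the overlap of PSMB10 with another gene applies to this ratio. PSMB8 (chr6:32840717-32844703) and PSMB9 (chr6:32844136-32859585, GRCh38) overlap in part on opposite strands. PSMB8 shares 20.6% of its exon bases with genes on the other strand. PSMB9 shares 4.5% with PSMB8 and 5.7% with PSMB8-AS1, a transcript on its own strand, so its low counts carry the same limit.

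**Figure D2:**
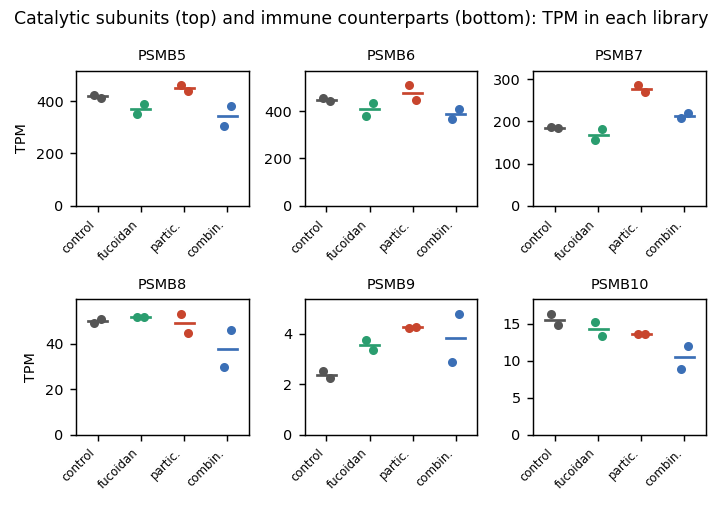
TPM of the catalytic beta subunits (upper row) and of the immune subunits that replace them (lower row), 1 point a library and a line at the mean of the 2 libraries of each group. PSMB7 is highest in the 2 particulate libraries, at 286 and 269.5 TPM against 186 and 183 in control, while each lower panel has a far smaller scale.

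In the 19S base 2 of 6 ATPases rose. PSMC4 had 93.7 and 97.6 CPM in control, 77.4 and 86.2 with fucoidan, 157 and 129 with particulate and 117 and 109 in the combination. The groups did not overlap between particulate and control (0.58 ± 0.15, adjusted p = 0.0257), and this was the largest change among the ATPases. PSMC5 had 194 and 198, 167 and 179.6, 308 and 250.01 and 190.1 and 208 CPM (0.51 ± 0.15, adjusted p = 0.041). PSMC3, the most abundant ATPase, had the smallest value in the class (0.16 ± 0.16, adjusted p = 0.521). All 6 lay above zero.

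Of the other 19S subunits 3 of 11 rose, all of them in the lid, which holds the deubiquitinase, and all 11 lay above zero. PSMD12, a lid subunit at chr17:67337916-67366627 on the minus strand (GRCh38, GENCODE 29), had 57.6 and 59.4 CPM in control, 52.6 and 50.9 with fucoidan, 105 and 113 with particulate and 100.5 and 92.7 in the combination. The 4 libraries with particulate, alone or combined, all exceeded the 4 without it. The change with particulate was 0.90 ± 0.14 (adjusted p = 0.00211), the largest and the only one of the 11 that passed in all 17 alternative analyses, with adjusted p from 3.08e-05 to 0.0412. PSMD14, the metalloprotease that cuts ubiquitin chains off substrates (chr2:161308038-161411717, plus strand), had 54.3 and 77.8 CPM in control, 63.9 and 66.7 with fucoidan, 104 and 106 with particulate and 126 and 96.9 in the combination. It too separated all libraries with particulate from those without (0.67 ± 0.20, adjusted p = 0.0403), but its control libraries were unequal, and without control replicate 1 the change was 0.43 (adjusted p = 0.313). PSMD11, a lid subunit that stabilises the assembled proteasome, went from 92.3 and 104 to 141 and 150.4 CPM (0.57 ± 0.15, adjusted p = 0.0242). PSMD2 had 1280.3 and 1352 CPM in control, 1034 and 1127 with fucoidan, 1796 and 1737 with particulate and 1623 and 1469.7 in the combination. Its groups did not overlap, but its change of 0.42 ± 0.14 had an adjusted p of 0.0539. PSMD4, a ubiquitin receptor, had the smallest value of the class (0.20 ± 0.16, adjusted p = 0.418). PSMD5, PSMD9 and PSMD10, which escort the ATPases during assembly, had changes from 0.01 to 0.10, and none of them passed.

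The activators and the inhibitor did not pass. PSME1 and PSME2, whose products form the interferon-inducible cap, had -0.05 ± 0.15 (adjusted p = 0.833) and 0.14 ± 0.17 (adjusted p = 0.602) with particulate. PSME1 had 154 and 162 CPM in control, 174 and 192 with fucoidan, 169 and 136 with particulate and 153 and 149.9 in the combination, and was highest with fucoidan. PSME3, the activator of the nuclear proteasome, had 150.2 and 165 CPM in control, 120.2 and 133 with fucoidan, 214 and 212 with particulate and 96.6 and 189.9 in the combination. Its change with particulate was 0.43 ± 0.26 (adjusted p = 0.275), and its combination libraries differed from each other more than those of any other member. PSME4, an activator linked to histone breakdown, had 0.16 ± 0.15 (adjusted p = 0.494), and PSMF1, described as an inhibitor of the 20S core, had 0.16 ± 0.15 (adjusted p = 0.499).

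Among the chaperones that build the 20S core 1 of 5 rose, PSMG1, which pairs with PSMG2 to assemble the alpha ring. PSMG1 had 30.4 and 36.4 CPM in control, 25.7 and 30.3 with fucoidan, 54.3 and 50.2 with particulate and 31.7 and 40.6 in the combination (0.65 ± 0.18 with particulate, adjusted p = 0.0338). Its particulate libraries were above the other 6. PSMG2 had 0.13 ± 0.17 (adjusted p = 0.617). POMP, which brings the beta subunits onto the alpha ring and is degraded by the finished core, had 27.0 and 38.3 CPM in control, 23.1 and 30.3 with fucoidan, 58.2 and 46.0 with particulate and 42.4 and 37.1 in the combination. Both particulate libraries exceeded the rest, and its change of 0.67 ± 0.22 had an adjusted p of 0.057. PSMG4 had the smallest value of the class (-0.06 ± 0.28, adjusted p = 0.897).

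**Figure D3:**
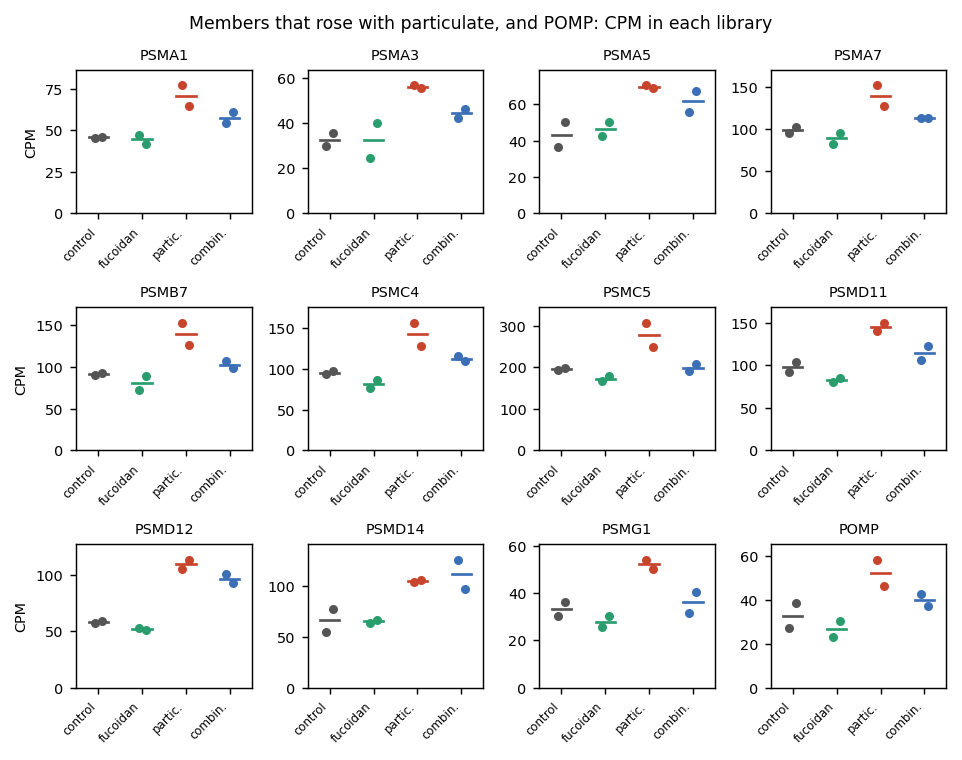
CPM in each library for the 11 members that rose with particulate and for POMP, 1 point a library and a line at the group mean, with every axis from 0. In PSMD12 and PSMD14 the combination points (blue) lie nearer to the particulate points (red) than to the control points, in PSMD12 just below them, and in PSMB7, PSMC5 and PSMG1 they lie nearer to the control points (grey).

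The calls rest on few libraries, and so do those of all tested genes. Fewer of all tested genes rose where a control, fucoidan or particulate library was left out. More of them rose where a combination library was left out. Without control replicate 1 only PSMD12 of the 11 passed, and the adjusted p of the other 10 lay between 0.159 and 0.313. Without control replicate 2, PSMA5, PSMD12 and PSMD14 passed, and without fucoidan replicate 1 or 2 PSMA3, PSMB7 and PSMD12. Without particulate replicate 1, PSMD11 and PSMD12 passed, and without particulate replicate 2, PSMA1, PSMA7, PSMB7, PSMC4, PSMC5 and PSMD12 passed together with PSMD8. Without combination replicate 1 or 2 all 11 passed together with the same 10 others (PSMA4, PSMB2, PSMB9, PSMC2, PSMD1, PSMD2, PSMD6, PSMD8, PSME3 and POMP), which made 21. In no analysis without 1 library did a member fall with particulate. The size of the shift also differed between the particulate replicates: 39 of 47 members were higher in replicate 1. The median difference was 0.23 over the members and 0.003 over all tested genes, on the log2 scale. In control 6 of 47 members were higher in replicate 1 (median -0.08), with fucoidan 11 (-0.16) and in the combination 21 (-0.01). The medians of all tested genes there were 0.001, 0.007 and 0.009. Members thus also moved together between replicates of the same treatment, so counts of members above or below zero do not count independent observations.

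Fucoidan alone changed no proteasome gene that the fit could detect. With edgeR 0 of 47 members rose and 0 fell, as did 0% of all tested genes, and 0 members had an unadjusted p under 0.05. DESeq2 and limma also called 0 members. The fold changes leaned downward, with a median of -0.11 and 39 of the 47 below zero. The median was -0.04 without fucoidan replicate 1 or control replicate 2 and -0.17 without fucoidan replicate 2 or control replicate 1. Both fucoidan libraries lay below both controls in 16 of the 47 members and above in 3 (6.38%), against 24.8% and 23.2% of all tested genes. PSMD2 had -0.28 ± 0.14 and PSMB5 -0.22 ± 0.15 (adjusted p = 0.999 for each). Fucoidan replicate 1 held the lowest level of the 8 libraries in 23 members, a count that was not made over all tested genes. The 3 members with both fucoidan libraries higher were PSMB9 (0.53 ± 0.29), PSME1 (0.21 ± 0.15) and PSMD10 (0.12 ± 0.14).

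Adding fucoidan to the particulate went with lower values of most proteasome genes, but no member passed. With edgeR 0 of 47 members rose and 0 fell, where 0.0799% of all tested genes rose and 0.00666% fell. At an unadjusted p under 0.05 there were 14 members (29.8%), against 17.3% of all tested genes, and DESeq2 and limma called 0. The median log2 fold change was -0.32 over the members and 0.02 over all tested genes, and 44 of the 47 members lay below zero. In 36 members (76.6%) both combination libraries lay below both particulate libraries and in 0 both lay above, against 20.4% and 20.9% of all tested genes. This comparison shares its particulate libraries with the comparison of particulate and control, so a high value in those libraries moves both, in opposite directions.

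**Figure D4:**
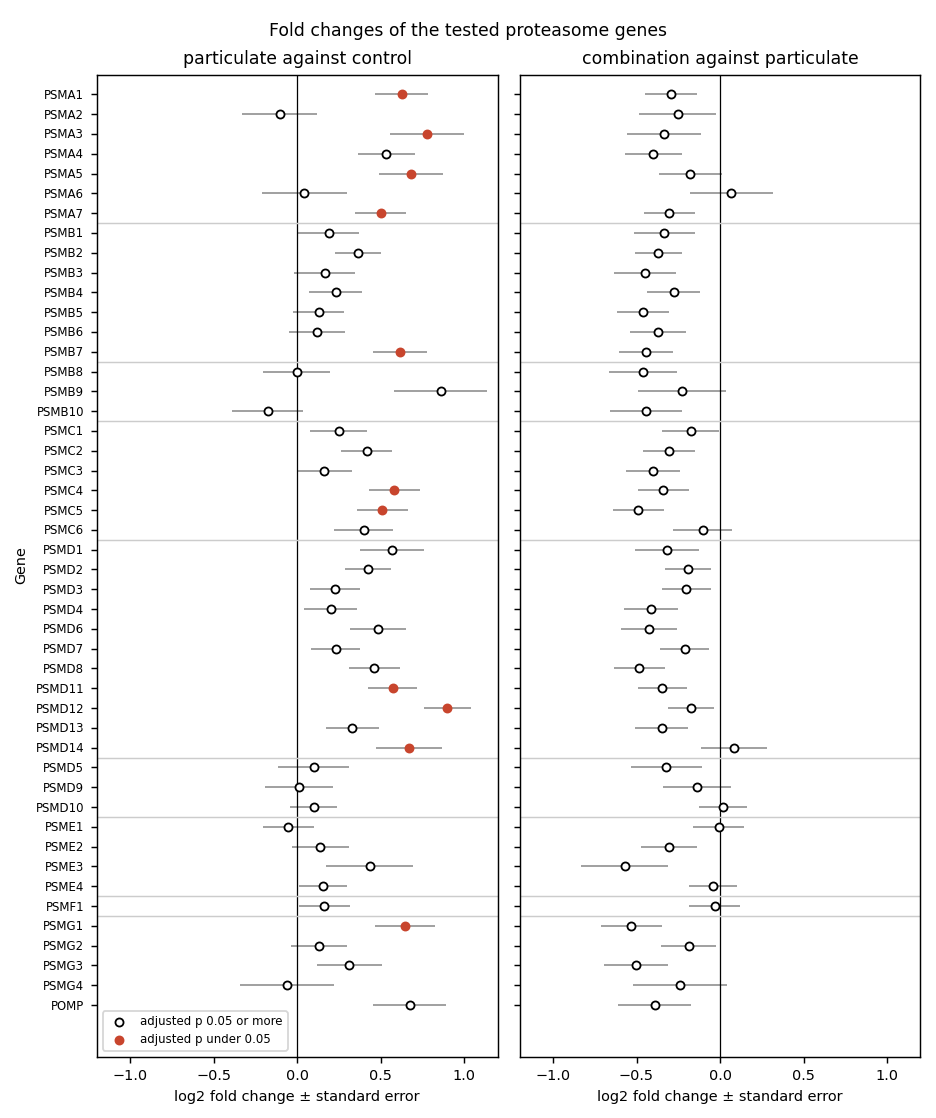
Log2 fold change ± SE of each tested member, in class order, for particulate against control (left) and combination against particulate (right). Filled red points had an adjusted p under 0.05: there are 11 on the left and none on the right. The 2 panels share the particulate libraries, so they are not independent.

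In the alpha ring the values of the combination against particulate ran from -0.40 in PSMA4 to 0.07 in PSMA6, and in the beta ring from -0.46 in PSMB5 to -0.28 in PSMB4. PSMB5 had -0.46 ± 0.15 (adjusted p = 0.237), and its combination libraries lay below the controls as well as below the particulate libraries. PSMB6 had -0.37 ± 0.17 and PSMB7 -0.44 ± 0.16 (adjusted p = 0.293 and 0.254). Among the immune subunits PSMB8 had -0.46 ± 0.20 (adjusted p = 0.28), PSMB9 -0.23 ± 0.27 (adjusted p = 0.665) and PSMB10 -0.44 ± 0.22 (adjusted p = 0.315). PSMC5 with -0.49 ± 0.15 and PSMC6 with -0.10 ± 0.18 were the ends of the ATPase range, and PSMD8 with -0.48 ± 0.15 and PSMD14 with 0.08 ± 0.20 those of the other 19S subunits. PSMD5 had -0.32 and PSMD10 0.02 among the 19S chaperones. Among the 20S chaperones PSMG1 had -0.53 ± 0.18 (adjusted p = 0.24), POMP -0.39 ± 0.22 (adjusted p = 0.361) and PSMG2 -0.19 ± 0.17, the smallest of that class.

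PSME3 had the lowest value of all members, -0.57 ± 0.26 (adjusted p = 0.293), and it rested on 1 library: combination replicate 1 had 96.6 CPM and replicate 2 189.9. The other activators had -0.30 (PSME2), -0.04 (PSME4) and -0.0086 (PSME1), and PSMF1 had -0.03. Without combination replicate 2, where replicate 1 stands alone for its group and is assumed to vary like the others, 6 members fell: PSME3 (-1.14, adjusted p = 0.00145), PSMG1, PSMB8, PSMD5, PSMD6 and PSMC5. These are 12.8% of the members, in a fit where 8.63% of all tested genes fell and 12.3% rose. Without combination replicate 1 the same members did not pass, and the median was -0.26. A value that missed the threshold here does not show that the combination and the particulate act alike.

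Against control, the combination left 2 members higher and 0 lower of 47, where 8.17% of all tested genes rose and 8.86% fell. PSMD12 had 0.72 ± 0.14 (adjusted p = 0.00888), and without control replicate 1 or 2 its adjusted p was 0.111 or 0.084. PSMD14 had 0.75 ± 0.20 (adjusted p = 0.0309). Its change was 0.52 without control replicate 1, and its adjusted p was 0.25 there, 0.0621 and 0.0623 without fucoidan replicates 1 and 2, and 0.0793 without combination replicate 1. The median member had 0.02, equal to that of all tested genes (0.02), and -0.02 without control replicate 1, with 26 of 47 above zero. The classes differed: the median was 0.20 in the alpha ring (6 of 7 above zero) and -0.15 in the beta ring (1 of 7). It was -0.46 in the immune subunits (1 of 3), 0.09 in the ATPases (5 of 6) and 0.06 in the other 19S subunits (8 of 11). At an unadjusted p under 0.05 there were 3 members higher and 2 lower (10.6% in all), against 34.2% of all tested genes, and DESeq2 and limma called 0 lower. Without combination replicate 2, PSMB8, PSMB10, PSMD5 and PSME3 fell as well, 8.51% of the members in a fit where 15.9% of all tested genes fell. Without combination replicate 1, PSMB9 rose.

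Against fucoidan alone, which shows the effect of particulate in the presence of fucoidan, 3 members rose and 0 fell, where 10.2% of all tested genes rose and 10.6% fell. These were PSMD12 (0.90 ± 0.14, adjusted p = 0.00256), PSMD14 (0.77 ± 0.20, adjusted p = 0.0241) and PSMD2 (0.52 ± 0.14, adjusted p = 0.0263). PSMD12 passed in all 8 analyses without 1 library, while PSMD2 and PSMD14 were lost without fucoidan replicate 1 or 2 (adjusted p from 0.128 to 0.209) and without combination replicate 1 (0.0543 and 0.0613), and PSMD2 also without control replicate 1 or 2 (0.0599 and 0.0602), under upper-quartile scaling (0.0614) and in the 4 libraries alone (0.0754). PSMB8 fell without combination replicate 2, and PSMD11 and PSME3 rose without combination replicate 1. At an unadjusted p under 0.05 there were 8 members higher and 1 lower (19.1% in all), against 36.4% of all tested genes, and DESeq2 and limma called 0 lower. The interaction, which asks whether particulate acted differently with fucoidan than without it, called 0 of 47 members with edgeR in either direction, as in 0% of all tested genes, and 0 members had an unadjusted p under 0.05. DESeq2 and limma called 0 too. Its median was -0.21 over the members, with 7 of 47 above zero, and -0.11 without particulate replicate 1 or fucoidan replicate 2. Its SE lay near 0.19 for PSMD12 and 0.39 for PSMB9.

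**Figure D5:**
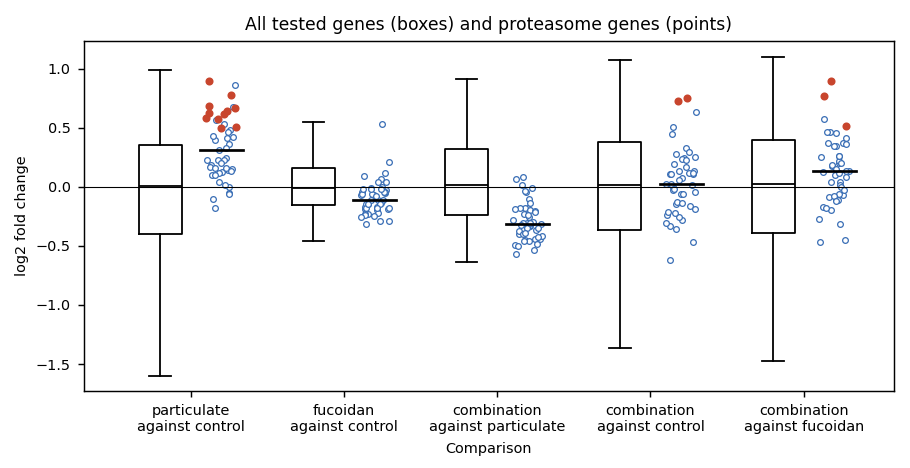
Log2 fold changes in the 5 pairwise comparisons for all tested genes (boxes: quartiles, with whiskers at the 5th and 95th percentile) and for the 47 proteasome genes (points, with a bar at their median). Red points passed. The members' median is 0.31 for particulate against control and -0.32 for the combination against particulate, where the medians of all tested genes are 0.01 and 0.02.

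Partners of the proteasome outside the PSM naming were taken from a list of 12 bound factors, of which 2 rose with particulate (16.7%, against 9.11% of all tested genes) and 0 fell. ADRM1, a ubiquitin receptor of the 19S cap, went from 107 and 100.1 to 196 and 155 CPM (0.76 ± 0.19, adjusted p = 0.0204), and was lost without control replicate 1 or 2 or particulate replicate 1 (adjusted p from 0.085 to 0.145). PITHD1, a protein that binds the proteasome, went from 39.6 and 46.9 to 96.3 and 82.2 CPM (1.04 ± 0.17, adjusted p = 0.00279, 0.0541 without control replicate 1). SEM1, the small lid subunit, had -0.01 ± 0.19 (adjusted p = 0.979). Of 15 genes for ubiquitin, shuttles and the unfoldase VCP, 1 rose (6.67%, under the 9.11% of all tested genes) and 0 fell: UBA6, a ubiquitin-activating enzyme (0.69 ± 0.21, adjusted p = 0.0481), which passed in 8 of 17 alternatives and not without control replicates 1 or 2, fucoidan replicates 1 or 2 or particulate replicate 2. The polyubiquitin gene UBB had -0.05 ± 0.19 (adjusted p = 0.887). The medians of the 2 lists were 0.26 and 0.28.

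Among 12 regulators of proteasome genes, 2 rose (16.7%) and 1 fell (8.33%) with particulate, near the 9.11% and 11.5% of all tested genes. NFE2L1 had 563 and 530.3 CPM in control, 573 and 538 with fucoidan, 443 and 501 with particulate and 583 and 483 in the combination (-0.21 ± 0.15 with particulate, adjusted p = 0.357). NFE2L2, the oxidative stress factor of the same family, had 148 and 152, 163 and 158, 138 and 151 and 257 and 181 CPM (-0.05 ± 0.18 with particulate, adjusted p = 0.856). It was highest in combination replicate 1, and the combination against particulate had 0.60 ± 0.18 (adjusted p = 0.22, 0.00347 without combination replicate 2). Both factors are known to be controlled largely after transcription, so mRNA does not measure their activity. NFE2L3, the third member of that family, fell from 91.5 and 95.1 to 50.4 and 46.2 CPM (-0.95 ± 0.14, adjusted p = 0.00173) and passed in all 17 alternatives. The small MAF partners rose in MAFG (1.01 ± 0.15, adjusted p = 0.00198, all 17 alternatives) and MAFF (1.78 ± 0.50, adjusted p = 0.0335), where MAFF was lost in each of the 6 analyses without a control, fucoidan or particulate library. Of 7 genes of the immune proteasome's surroundings 3 rose (42.9%) and 0 fell. IRF1, the interferon-regulated activator of PSMB9, went from 9.27 and 8.82 to 28.2 and 24.2 CPM (1.53 ± 0.25, adjusted p = 0.00251, all 17 alternatives). The peptide transporter genes TAP1 and TAP2, which neighbour PSMB9 and PSMB8, had 0.67 ± 0.15 and 0.99 ± 0.19 (adjusted p = 0.013 and 0.00545). TAP1 was lost without control replicate 1 or 2 (adjusted p = 0.0557 and 0.141) and TAP2 without control replicate 2 (0.0723). In the combination against particulate 0 genes of these 4 lists passed in edgeR's fit, with 3, 0, 1 and 0 at an unadjusted p under 0.05 in the regulators, the bound factors, the ubiquitin genes and the immune genes.

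The promoters of the members were searched for TGACNNNGC, the core of the antioxidant response element that NFE2L1 and NFE2L2 bind together with a small MAF protein, on both strands of RefSeq windows (GRCh38.p14) from 250 bases before to 50 bases after the start of each gene. Windows were found for 43 of the 49 members, and those of PSMA7, PSMB1, PSMB6, PSMB7, PSMD4 and PSMG3 were not used here. The motif was present in 13 of the 43 (30.2%), in 13.6% of all 27305 promoters of the table and in 14.3% of the 15842 of protein-coding genes. It was present in 3 of the 9 windows of members that rose with particulate (33.3%) and in 10 of the 34 others (29.4%). The pentamer CCAAT, the site of the general factor NFY, was present in 19 of the 43 (44.2%) and in 35.7% of all promoters. The 3 members that rose and hold the motif are PSMD12, PSMG1 and PSMC4. The 250 bases before the start are shown for PSMD12, the gene with the most stable increase, and PSMG1, with the match in capitals. Both read on the minus strand, PSMD12 at chr17:67366578-67366827 with the match beginning 165 bases before the start and PSMG1 at chr21:39183452-39183701 with the match 183 bases before it.
PSMD12: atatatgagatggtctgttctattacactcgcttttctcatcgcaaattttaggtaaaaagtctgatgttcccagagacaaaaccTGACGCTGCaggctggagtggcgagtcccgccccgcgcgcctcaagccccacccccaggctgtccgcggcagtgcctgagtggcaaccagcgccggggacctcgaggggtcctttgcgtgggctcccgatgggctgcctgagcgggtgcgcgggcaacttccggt
PSMG1: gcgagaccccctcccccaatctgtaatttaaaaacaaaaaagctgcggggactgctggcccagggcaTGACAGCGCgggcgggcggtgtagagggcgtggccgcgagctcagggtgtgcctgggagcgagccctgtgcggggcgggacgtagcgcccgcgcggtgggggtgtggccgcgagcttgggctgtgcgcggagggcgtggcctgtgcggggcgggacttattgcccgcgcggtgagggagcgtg
The matches are TGACGCTGC and TGACAGCGC, which differ in the unspecified middle bases. A match describes letters in a window and does not show binding.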

How the data were processed

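Read counts per gene were used as the authors deposited them, raw whole numbers, and TPM (scaled by gene length and library) were deposited in the same table, per the file headers. Per the submitters' processing notes, the tools were bcl2fastq, fastp 0.20.0, FastQC 0.11.9, HISAT2 2.1.0 and featureCounts of Subread 2.0.1, with the genome build GRCh38. A stranded poly(A) kit was used, per the labels' protocols. Not given in the sources used here are the strand setting, the annotation release, the treatment of multi-mapped reads and the tool behind the TPM. Strandedness, shared exons and pseudogene copies can therefore move the counts of overlapping genes.

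The analysis used R 4.3.3 and edgeR 4.0.16. Genes were kept by filterByExpr (15010 of 60623 genes, 33419 having no read), libraries were scaled by TMM, and a quasi-likelihood fit gave each group its own mean over the 8 libraries, with 4 residual degrees of freedom. Benjamini-Hochberg adjustment ran over all tested genes within each of 6 comparisons: 5 pairs and the interaction of particulate and fucoidan. Because edgeR adds a prior count, fold changes of scarce genes are drawn toward zero. The scripts were tested on simulated data with known changes.

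The alternatives were DESeq2 1.42.0, its size factors or upper-quartile scaling in the edgeR fit, no low-count filter, limma 3.58.1 on log2 of TPM plus 0.1 or plus 1, limma-voom with library weights, a replicate block, the 4 libraries of a comparison alone, and each library left out. Genes named with values are those that passed, the catalytic and immune subunits, the activators, the inhibitor, PSMD14, POMP and the extremes of each class. PSMD4, PSMD2, PSMA5, PSMA7, SEM1 and UBB stand beside them as context where they fall outside that rule. The members, classes, lists and tests were chosen with earlier results of these data known. P-values weigh a difference between groups against the spread estimated from the deposited libraries. Gene places came from GENCODE 29 and promoters from RefSeq.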

Additional observations from a re-analysis of the deposited data

How the results depend on the processing

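With particulate against control 11 members rose, and 6 did under upper-quartile scaling, 18 in limma-voom with library weights and 18 in a fit of the 4 libraries alone. Of all 15010 tested genes 1367 rose, and 1126, 1932 and 1998 did in the same order of analyses. Upper-quartile scaling lost PSMA3, PSMA5, PSMA7, PSMC5 and PSMG1, DESeq2 lost PSMA7 (adjusted p = 0.0533) and added POMP, and limma on TPM lost PSMA3, PSMA5, PSMD11 and PSMG1 and added PSMD2, PSMD8 and POMP. Leaving out 1 library at a time gave 1 to 21, the lowest without control replicate 1. The median member's fold change stayed between 0.23 and 0.43 over all alternatives. In the combination against particulate 0 fell, 1 fell with no low-count filter (PSME3), and 0 to 6 fell with 1 library left out, all 6 without combination replicate 2, while the median stayed between -0.42 and -0.22. In the combination against control 2 rose, and 1 did in limma-voom, with the replicate block and in the 4 libraries alone. Of all tested genes 1226 rose there, and 965, 853 and 425 did in the same order of analyses. Without a control or fucoidan library fewer members rose there, as did fewer of all tested genes. Members fell there only without combination replicate 2, where more of all tested genes fell too. The median there changed sign, from 0.02 to -0.08 under upper-quartile scaling and -0.02 without control replicate 1. In the combination against fucoidan 3 rose. Fewer members, and fewer of all tested genes, rose there without a control or fucoidan library. A member fell only without combination replicate 2, where more of all tested genes fell too. The interaction had 0 to 1 lower without 1 library, PSME3 without combination replicate 2. PSME3 depended on which combination library was kept: against control it had 0.27 without replicate 1 and -0.71 without replicate 2, and against fucoidan 0.59 and -0.39. Where a group was left with 1 library, that library was assumed to vary like the others.

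Upper-quartile scaling moved the median of all tested genes by 0.106 in the combination against control and 0.126 in the combination against fucoidan. Relative to that of all tested genes the members' median lay between -0.04 and 0.06 in the former and between 0.05 and 0.20 in the latter over all alternatives.

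The labels link same-numbered libraries by nothing but the number. Deviations of same-numbered libraries correlated between -0.25 and 0.0754 across pairs of groups, which does not show whether any of them shared a batch. With the replicate block 9 members rose with particulate, where PSMA7, PSMC5 and PSMD14 were lost and PSMD1 was added. Of all tested genes 1062 rose with the block and 1367 without it. With 2 libraries a group and 4 residual degrees of freedom, log2 fold changes carried SEs of about 0.15 in many abundant members. The SEs were larger in some other abundant members, such as PSME3 and PSMD14, and 0.28 in PSMB9. Such SEs limit what can be called. The cause of the changes between alternatives was not tested.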
